A study of Mus musculus with 14 samples.

Results

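The first step of control differentiation, from undifferentiated female embryonic stem (ES) cells at day 0 to cells at day 3, was examined in 4 of the 14 RNA-seq libraries of the series. The 4 libraries are replicates 1 and 2 of the untransduced cells at day 0 and replicates 1 and 2 of the cells that carried the non-silencing control hairpin (Nons) at day 3. They were taken by their labels. All 14 libraries come from a single female ES line, Setdb1+/+ Xist-deltaA/+, derived from an E3.5 embryo, so there is no replication across lines. The sires were CAST, and the dams are 129/C57 by the labels and 129 by the study's methods. The day 0 cells were grown in 2i plus LIF medium and had no hairpin. The day 3 cells had been moved stepwise towards serum medium, transduced with a retrovirus carrying Nons and selected with puromycin, so that the time of differentiation cannot be told apart from transduction and selection. The sources used here place the transduction at different times, at the start of differentiation or later. The other 10 libraries (Nons at day 5, and the Setdb1 hairpins shSetdb1.4 and shSetdb1.6 at day 3 and day 5) entered the model for the estimate of the spread and are shown beside the results for single genes.

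Female mouse cells silence one X chromosome when they leave the pluripotent state, and until then both X chromosomes are active. X inactivation is started by the Xist RNA, which coats the chromosome it is made from. The Xist-deltaA allele lacks the part of the RNA needed for silencing and here lies on the 129 X chromosome, so the CAST X chromosome is the one that can become the inactive X (Xi) and the 129 X chromosome stays the active X (Xa). Several X-linked genes also act in the ES cell state itself, among them Nr0b1, which codes for a transcription regulator of the pluripotency network. The question of this comparison was which X-linked genes change in level by day 3, and whether the 129 and CAST alleles change together.

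Reads were counted by allele, 129 or CAST, at 2239 X-linked single nucleotide polymorphisms (SNPs), of which 2173 lie in the exons of exactly 1 gene. These SNPs mark 355 genes, and the reads of both alleles were summed over a gene's SNPs. Among the 2173 SNPs, 839 are in coding sequence, 1271 in untranslated sequence of coding genes and 63 in noncoding genes. The 4 libraries held 79819 and 82899 reads at day 0 and 51392 and 79969 reads at day 3, and all 14 held between 32972 and 101511. A level is given below as reads per 100000 reads of that library, which counts X-linked SNP reads only, so a level is a share of X-linked reads. It does not say whether the total output of the X chromosome changed. Fewer cells of a type and less RNA per cell cannot be told apart in such bulk samples. Levels are not corrected for the number of SNPs or gene length. They are compared only between libraries, within a gene or within the sum of a list.

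The pair of day 0 libraries differed from each other more than the day 3 libraries did, and this touches every result below. The root mean square log2 difference over the 319 genes tested was 0.58 between the day 0 libraries and 0.44 between the day 3 libraries. Replicate 2 of day 0 was as near to the day 3 libraries (0.53 and 0.57) as to its own replicate, while replicate 1 of day 0 lay farther from them (0.74 and 0.90). In 126 of the 319 genes replicate 2 of day 0 lay between replicate 1 of day 0 and both day 3 libraries, and the reverse order was found in 46 genes. The reason for this was not tested. The X-linked markers of undifferentiated ES cells Nr0b1, Dusp9, Slc7a3 and Tfe3 were read in all 4 libraries, with summed levels of 1888 and 3224 at day 0 and 3563 and 3895 at day 3. Their sum was therefore lowest in replicate 1 of day 0 and did not fall by day 3. Summed levels of markers of other cell types depend on the genes and SNPs measured and are compared only between libraries. Trophoblast markers had 342 and 353 at day 0 and 235 and 150 at day 3 (4 of 5 measured, with most of the sum from Elf4). Fibroblast markers had 291, 152, 165 and 146 (2 of 5) and neural markers 41.3, 50.7, 27.2 and 65.0 (2 of 7). The extraembryonic endoderm list had 1 of 4 members measured, Gpc3, with 281, 127, 302 and 146. No measured marker of these lists was at 0 in any of the 4 libraries. The part of these cell types in the results was not tested.

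Total reads of 29 genes changed between day 0 and day 3 (edgeR's quasi-likelihood test, Benjamini-Hochberg adjusted p under 0.05), which is 9.09% of the 319 genes tested. Of these, 14 rose (4.39%) and 15 fell (4.7%), and 72 genes had an unadjusted p under 0.05. The median log2 change of all tested genes was 0.01. In all 29 genes both day 3 libraries lay on the same side of both day 0 libraries. On the scale of reads per 100000 the same was true, whatever the test, for 21.3% of all tested genes in the upward direction and 32.6% in the downward direction. With the replicate number as a block, which uses that each replicate is a separate differentiation experiment, 50 genes were called (15.7%), 25 in each direction, and all 29 were among them. Scaled to library totals alone, 7 genes were higher and 17 lower, because that scaling moves the median log2 change of all genes to -0.11.

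The calls depended on which libraries entered the fit. Without replicate 1 of day 0 none of the 29 genes was called, and the only call was Rbm3, an RNA-binding protein known to be induced by mild cold, with levels of 292 and 44.6 at day 0 and 216 and 133 at day 3. Without replicate 2 of day 0 there were 44 calls, of which 23 were among the 29. Without replicate 1 of day 3, 8 of the 29 were still called, among them Eras, Lamp2, Med14, Plp2, Rbm41, Tceal8 and Tceanc. Without replicate 2 of day 3 no gene was called, and 48 had an unadjusted p under 0.05. A fit of the 4 libraries alone also gave 0 calls, with 60 at an unadjusted p under 0.05. All 29 genes kept their direction in each of these fits.

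**Figure D1:**
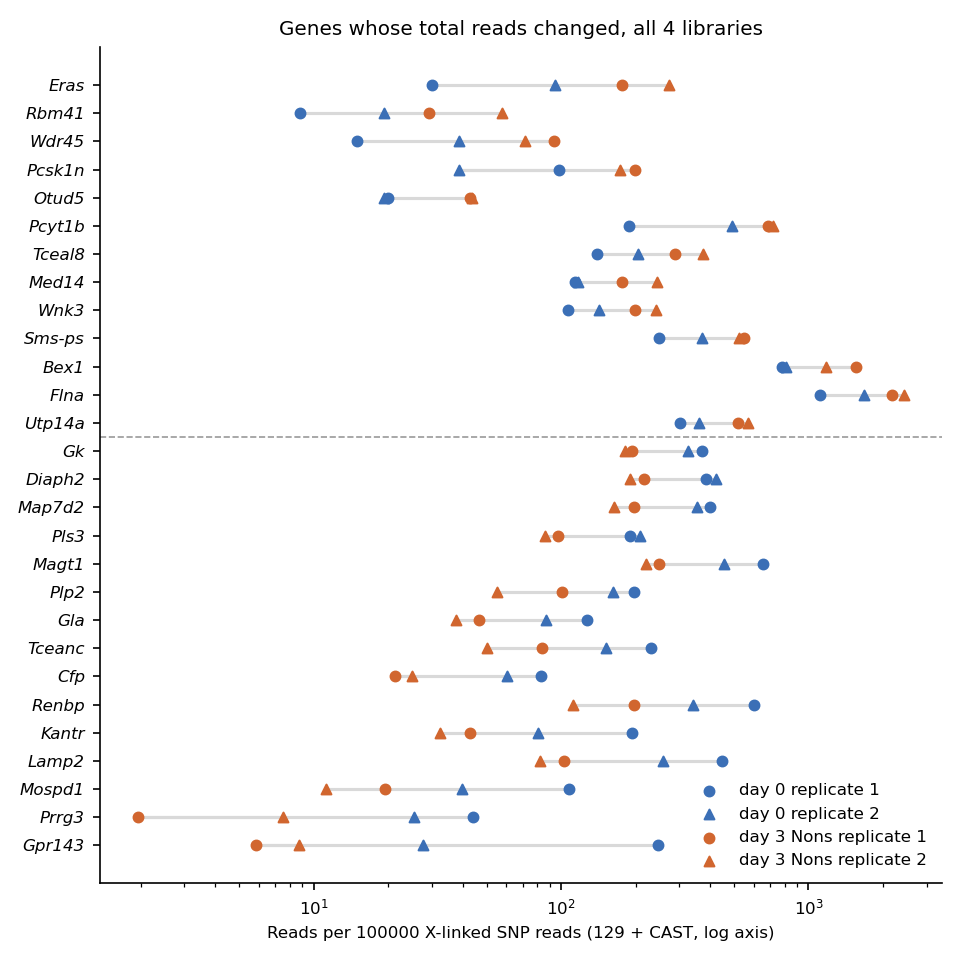
Level of 28 of the genes whose total reads changed, in reads per 100000 X-linked SNP reads on a log axis, with blue for day 0, orange for day 3 Nons, circles for replicate 1 and triangles for replicate 2. Genes above the dashed line were higher at day 3 and the 15 below it lower, and in most genes replicate 2 of day 0 is nearer to the day 3 libraries than replicate 1 is.

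A large rise was found in Eras, which codes for a constitutively active Ras protein of ES cells and lies at chrX:7924276-7928607 (mm10). Eras had levels of 30.1 and 94.1 at day 0 and 177 and 274 at day 3, from 24, 78, 91 and 219 reads. Both day 3 libraries were above both day 0 libraries, and replicate 1 of day 0 was the lowest. The log2 change was 1.98 ± 0.45 (SE, adjusted p = 0.0322), or 5.89-fold in replicate 1 and 2.91-fold in replicate 2. The Eras change was 1.37 without replicate 1 of day 0 and 3.05 without replicate 2, so the size depends on which day 0 library is used.

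The changes can be followed at single bases. The windows below show 10 reference bases on each side of the SNP with the most reads in each gene, on the strand of the gene, with the SNP base in capitals at position 11 counted from the 5' end. They are given for genes with a large rise or fall, and the bases were read from GENCODE transcripts, where the base at all 2173 SNPs was the reference base of the table.

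Eras: gcaccagatcTccagaggaaa

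Lamp2: cactcactccAacttcaacac

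Gpr143: ggaaggttgtAtgtgtcgggg

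The Eras SNP (T11C, chrX position 7925113) is coding and had 10 and 35 reads at day 0 and 40 and 102 at day 3. The Lamp2 SNP (A11T, 38431973) is coding and went the other way, with 154 and 109 reads at day 0 and 15 and 34 at day 3. The Gpr143 SNP (A11G, 152798566), also coding, had 53 and 5 reads at day 0 and 1 and 2 at day 3. These are raw reads, and replicate 1 of day 3 has the lowest total of the 4 libraries.

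The other genes that rose are known for different functions. In transcription and RNA processing they were Med14, a subunit of Mediator (114, 117, 177 and 245, in the order day 0 replicates 1 and 2, then day 3 replicates 1 and 2), Tceal8, related to transcription elongation factors (140, 204, 288 and 374), Utp14a, needed for ribosome biogenesis (303, 362, 520 and 569), and Rbm41, an RNA-binding protein (8.77, 19.3, 29.2 and 57.5). Their log2 changes were 1.00, 1.06, 0.83 and 1.76, with adjusted p of 0.0322, 0.0322, 0.0427 and 0.0386. Rbm41 is counted from only 7, 16, 15 and 46 reads and its change fell to 1.11 without replicate 2 of day 3. Tceal8 and Bex1 belong to a family of similar X-linked genes and each has 1 SNP here, so shared reads are possible.

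Other genes that rose act in metabolism, signalling and protein handling. Pcyt1b, an enzyme of phosphatidylcholine synthesis, had levels of 188 and 490 at day 0 and 689 and 717 at day 3 (log2 change 1.16 ± 0.33, adjusted p = 0.0427), with most of its change in replicate 1 (3.67-fold against 1.46-fold). The change of Pcyt1b was 0.62 without replicate 1 of day 0 and 2.04 without replicate 2. Wdr45, which acts in autophagy, had 15.0 and 38.6 at day 0 and 93.4 and 71.3 at day 3 (1.70 ± 0.43, adjusted p = 0.0322), from a single SNP with 12 to 57 reads. Its change was 2.56 without replicate 2 of day 0. Pcsk1n, an inhibitor of a prohormone protease, was the one gene of the 14 for which replicate 2 of day 0 was clearly the lower, with 97.7 and 38.6 at day 0 and 198 and 174 at day 3 (1.57 ± 0.44, adjusted p = 0.0427, and 2.36 without replicate 1 of day 0). Otud5, a deubiquitinase, had 20 and 19.3 at day 0 and 42.8 and 43.8 at day 3, again from 1 SNP, with the replicates of each day close together (1.25 ± 0.37, adjusted p = 0.0431). Wnk3, a kinase that regulates ion cotransporters, had 106, 142, 198 and 243 (0.94 ± 0.27, adjusted p = 0.0427).

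Flna, Bex1 and Sms-ps also rose. Flna codes for the actin crosslinker filamin A and had levels of 1115 and 1682 at day 0 and 2175 and 2426 at day 3 over 17 SNPs, all 17 of which were higher at day 3 (0.83 ± 0.24, adjusted p = 0.0427, 0.55 without replicate 1 of day 0). The SNPs of a gene share their libraries and can share reads, and the test used their sum. Such counts of SNPs, here and below, are therefore descriptions only. Bex1, a small signalling adaptor, had 784, 813, 1551 and 1174 (0.88 ± 0.25, adjusted p = 0.0427). Sms-ps rose from 249 and 370 to 547 and 521 (0.89 ± 0.23, adjusted p = 0.0322), but it is annotated as a pseudogene of Sms, and reads of the 2 genes may be shared. Sms itself, the spermine synthase gene, had 486, 595, 679 and 764 (0.53 ± 0.21, adjusted p = 0.143) and was not called.

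The strongest fall by its test was in Lamp2, which codes for a lysosomal membrane protein and lies at chrX:38401357-38456454. Its levels were 446 and 259 at day 0 and 103 and 82.5 at day 3, a log2 change of -1.82 ± 0.36 (adjusted p = 0.0202). Both replicates fell, by 4.32-fold in replicate 1 and 3.14-fold in replicate 2. Magt1, a subunit of the oligosaccharyltransferase that is linked to magnesium uptake, had 653 and 455 at day 0 and 249 and 221 at day 3 over 11 SNPs, all of them lower at day 3 (-1.12 ± 0.23, adjusted p = 0.021). Gla, the lysosomal alpha-galactosidase A, had 128, 86.9, 46.7 and 37.5 (-1.24 ± 0.33, adjusted p = 0.0382). Renbp, an epimerase of N-acetylglucosamine metabolism, had 603, 343, 197 and 111 (-1.52 ± 0.42, adjusted p = 0.0427) and fell about equally in the replicates (3.07-fold and 3.08-fold). Gk, the glycerol kinase gene, had 371, 326, 193 and 181 over 13 SNPs, all lower (-0.78 ± 0.23, adjusted p = 0.0427).

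The largest fall in size, that of Gpr143, was also the least even. Gpr143 codes for a receptor of melanosomes and had levels of 247 and 27.7 at day 0 and 5.84 and 8.75 at day 3, from 197, 23, 3 and 7 reads over 7 SNPs. The gap between the day 0 libraries was larger than the gap between replicate 2 of day 0 and the day 3 libraries. Its log2 change was -4.02 ± 0.88 (adjusted p = 0.0298), and -1.75 without replicate 1 of day 0. Prrg3, a membrane protein with a Gla domain, was similarly low at day 3, with 43.8 and 25.3 at day 0 and 1.95 and 7.50 at day 3 from 1 and 6 reads (-2.56 ± 0.65, adjusted p = 0.0322, and -3.95 without replicate 2 of day 3). Mospd1, a protein of the endoplasmic reticulum, had 108, 39.8, 19.5 and 11.3 (-2.18 ± 0.54, adjusted p = 0.0322) and Kantr, transcribed next to Kdm5c, had 194, 80.8, 42.8 and 32.5 (-1.76 ± 0.41, adjusted p = 0.0322). Without replicate 1 of day 0 these log2 changes were -1.32 and -1.02.

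Pls3, an actin-bundling plastin, fell from 190 and 207 to 97.3 and 86.3 (-1.01 ± 0.26, adjusted p = 0.0365). Diaph2, a formin that assembles actin filaments, fell from 386 and 423 to 216 and 190, with all 19 of its SNPs lower at day 3 (-0.89 ± 0.25, adjusted p = 0.0427). Map7d2, which binds microtubules, fell from 401 and 356 to 197 and 164 (-0.96 ± 0.28, adjusted p = 0.0427). In Pls3, Diaph2 and Map7d2 the replicates of each day lay close together. The remaining genes that fell were Plp2, a membrane proteolipid (198, 163, 101 and 55.0), Tceanc, related to transcription elongation factors (232, 152, 83.7 and 50.0, with 17 of 17 SNPs lower), and Cfp, the complement factor properdin (82.7, 60.3, 21.4 and 25.0). Their log2 changes were -1.12, -1.43 and -1.48, with adjusted p of 0.0365, 0.0322 and 0.0427.

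**Figure D2:**
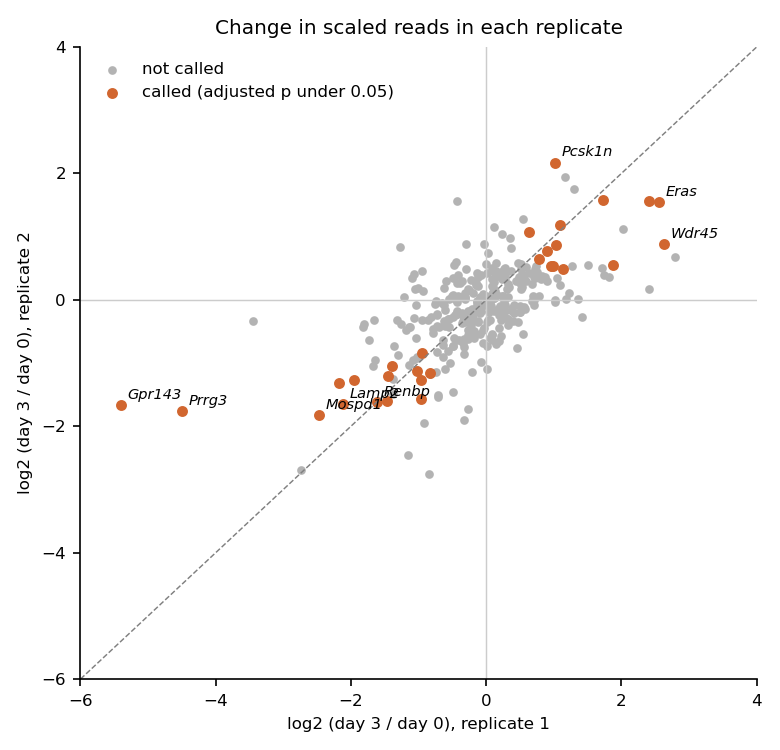
Log2 change in reads per 100000 from day 0 to day 3 for each of the 319 genes in replicate 1 (horizontal) and replicate 2 (vertical), with the 29 called genes in orange and equal change on the dashed line. Most called genes lie nearer to 0 in replicate 2: the change was larger in replicate 1 for 20 of the 29, and Gpr143 and Prrg3 are far to the left.

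The size of the change differed between the replicates, which share neither their day 0 nor their day 3 library. The median absolute log2 change over the 319 genes was 0.48 in replicate 1 and 0.37 in replicate 2. On reads per 100000, 96 genes were higher in both replicates and 130 lower in both.

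Upstream sequence of the genes that changed was searched for the E-box TCACGTGA, which is known to be bound by the TFE family of factors, to which the X-linked gene Tfe3 belongs, and which is found before many lysosomal genes such as Gla. The motif was chosen after the values were seen. It reads the same on both strands and contains the shorter E-box CACGTG. In the 250 bases before the RefSeq gene start (GRCm38.p6), TCACGTGA was found in 2 of the 13 genes that fell and have a sequence, Gla and Magt1, and in none of the 12 that rose. It was found in 7 of the 271 tested genes with a sequence (2.58%) and in 245 of 27025 mouse genes (0.907%). The shorter CACGTG was found in 4 of the 13 (Gk, Magt1, Gla and Diaph2), 0 of the 12, 31 of the 271 (11.4%) and 1854 of the 27025 (6.86%). The Lamp2 sequence held neither. These counts are too few for a comparison, and a match does not show binding. The 250 bases are shown, as the only such matches among the genes that changed, for both genes with the motif in capitals, 5' to 3' on the minus strand, at chrX:134601006-134601255 for Gla and chrX:106011803-106012052 for Magt1.

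Gla: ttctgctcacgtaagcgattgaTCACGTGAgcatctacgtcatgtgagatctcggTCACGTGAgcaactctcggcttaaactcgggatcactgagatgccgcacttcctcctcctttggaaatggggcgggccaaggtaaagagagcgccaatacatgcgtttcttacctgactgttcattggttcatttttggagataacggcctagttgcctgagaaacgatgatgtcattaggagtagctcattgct

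Magt1: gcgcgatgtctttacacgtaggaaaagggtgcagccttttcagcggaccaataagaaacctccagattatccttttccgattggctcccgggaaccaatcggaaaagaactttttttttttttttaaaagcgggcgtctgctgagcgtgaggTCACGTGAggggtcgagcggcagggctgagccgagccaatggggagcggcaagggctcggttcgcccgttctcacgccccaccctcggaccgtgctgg

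Gla holds the motif at 2 places, with the first base 228 and 195 bases before the start, and Magt1 at 1 place, 98 bases before it.

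Of the list of X-linked pluripotency and X-dosage regulators, 9 genes were tested by edgeR, 1 was called as higher at day 3 and 0 as lower, where 9.09% of all genes were called. All 9 had a log2 change above 0, with a median of 0.53 beside 0.01 for all genes tested. The median was 1.06 without replicate 2 of day 0 and 0.45 without replicate 1. The genes described here are members that were not called. Slc7a3, an arginine transporter of ES cells, had levels of 308 and 735 at day 0 and 1084 and 940 at day 3 (1.06 ± 0.41, adjusted p = 0.132). Tfe3, a TFE family factor that acts in the exit from pluripotency, had 502, 821, 936 and 1009 (0.67 ± 0.25, adjusted p = 0.118). With the replicate as a block, which called 15.7% of all tested genes, Slc7a3 and Tfe3 were called, with adjusted p of 0.0135 and 0.0342. Nr0b1 (Dax1), a repressor in the pluripotency network, had 737 and 1361 at day 0 and 1177 and 1611 at day 3, so its groups overlapped (0.53 ± 0.33, adjusted p = 0.354).

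Rlim and Klhl13, known as X-linked regulators of Xist and of pluripotency, were near their day 0 levels. Rlim, a ubiquitin ligase that activates Xist, had 2062 and 1210 at day 0 and 1603 and 1492 at day 3 (0.04 ± 0.23, adjusted p = 0.938). Klhl13, a ubiquitin ligase adaptor, had 563, 391, 595 and 551 (0.38 ± 0.26, adjusted p = 0.398), and Dusp9, a phosphatase of ERK, had 341, 308, 366 and 335 (0.22 ± 0.22, adjusted p = 0.555). The day 0 and day 3 levels overlapped in all 3 genes.

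None of the 4 genes known to escape X inactivation (Kdm5c, Kdm6a, Eif2s3x and Ddx3x) was called, where 9.09% of all tested genes were, and all had a log2 change above 0, as had 163 of the 319 genes, with a median of 0.56. This median was 0.35 without replicate 1 of day 0 and 0.81 without replicate 2. Eif2s3x, a translation initiation factor, had levels of 365, 491, 615 and 664 (0.69 ± 0.22, adjusted p = 0.0639), and Ddx3x, an RNA helicase, had 634, 919, 1060 and 1212 (0.66 ± 0.23, adjusted p = 0.091). Both were called with the replicate as a block (adjusted p = 0.0188 and 0.0167), as were 15.7% of all tested genes. The histone demethylase genes Kdm5c and Kdm6a had log2 changes of 0.40 ± 0.19 and 0.46 ± 0.25 (adjusted p = 0.225 and 0.287).

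Genes of later lineages showed no common direction. Of 11 tested genes known in differentiation and lineage choice, 2 were called as higher, among them Bex1, where 4.39% of all genes were, and 6 were above 0 and 5 below. The median was 0.23, and -0.22, -0.02 and -0.18 without replicate 2 of day 0, replicate 1 of day 3 or replicate 2 of day 3. The neural factor Sox3 had levels of 18.8 and 31.4 at day 0 and 7.78 and 56.3 at day 3, so the day 3 libraries lay on both sides of day 0. Of the trophoblast markers, 3 were tested and none was called, where 9.09% of all genes were, with a median log2 change of -0.88 beside 0.01 for all genes, or -0.36 without replicate 2 of day 0. The median is that of Elf4, a transcription factor also known in other cell types, which had 214, 188, 121 and 83.8 (-0.88 ± 0.39, adjusted p = 0.196).

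For lists of general cell functions, few genes were called, as among all genes tested (9.09%), and nothing particular to a list is read from these counts. Among 15 tested genes of mitochondria and energy metabolism only Gk was called, with a median of -0.07, and Pdha1, a subunit of pyruvate dehydrogenase, had 1118, 1049, 1236 and 1433 (0.42 ± 0.20, adjusted p = 0.216). Among 12 genes of translation and ribosome biogenesis Utp14a was called, with a median of 0.31, and among 12 genes of RNA processing Rbm41 was called (0.18). Among 25 chromatin and transcription regulators Med14 was called (0.21). Of the 9 cytoskeleton and matrix genes Flna rose and Plp2 fell (median -0.27), and of the 20 genes listed under signalling Map7d2, which binds microtubules, fell (0.09). Pls3 and Diaph2, described above, are in neither list. Of the 10 genes of sterol and lipid metabolism Pcyt1b rose (0.12), and of 17 genes of ubiquitin and protein turnover Otud5 and Wdr45 rose (0.23). Of the 6 genes of purine and pyrimidine metabolism 0 were called, and Hprt had levels of 1133, 1024, 1166 and 897 (0.04 ± 0.19, adjusted p = 0.905). Of the 15 tested germline and testis-associated genes 0 were called, with a median of 0.03. Zfp449 was the nearest to a call among them, with 91.5, 48.3, 29.2 and 25.0 (-1.25 ± 0.38, adjusted p = 0.0527). With the replicate as a block Zfp449 was called (adjusted p = 0.0341), as was Phka2 of the purine list, which codes for a phosphorylase kinase subunit (adjusted p = 0.028, lower at day 3). The block called 15.7% of all tested genes, and it gave 4 calls in the chromatin list (Bcor, Hcfc1 and Tfe3 beside Med14), 4 in the signalling list (Pim2 higher, Mtm1 and Ocrl lower beside Map7d2), 3 in the RNA processing list (Ddx3x higher and Ints6l lower beside Rbm41) and 2 in the translation list (Eif2s3x beside Utp14a). Leaving out 1 library moved these medians, which lay between 0.09 (without replicate 2 of day 3) and 0.40 (without replicate 1 of day 3) for translation, between 0.08 and 0.36 (the same libraries) for chromatin, and between 0.08 (without replicate 2 of day 0) and 0.25 (without replicate 1 of day 0) for RNA processing. They lay between -0.41 and -0.09 (without replicates 2 and 1 of day 0) for the cytoskeleton, between 0.01 (without replicate 1 of day 3) and 0.27 (without replicate 2 of day 0) for lipids and between 0.13 (without replicate 2 of day 3) and 0.39 (without replicate 2 of day 0) for ubiquitin. Those of the mitochondrial, signalling, purine and germline lists lay on both sides of 0. Rlim and Chic1 were the only tested genes of the X inactivation centre list, and neither was called.

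The alleles moved in the same direction in most genes. When the reads of each allele were fitted alone, 6 genes were called from the 129 reads (1.88% of 319, 4 higher and 2 lower) and 10 from the CAST reads (3.13%, 5 in each direction), and all were among the 29 genes called from the total. With the replicate as a block, 32 of the 319 genes were called from the 129 reads and 33 from the CAST reads. Without the block Lamp2 was called from each allele, with a log2 change of -1.85 in its 129 reads and -1.78 in its CAST reads. In all 29 genes both alleles moved in the direction of the total, and in 27 both had an unadjusted p under 0.05, though the total is made of the alleles and was what selected these genes. Over all 319 genes the alleles had the same direction in 259 (81.2%). The Pearson correlation of their log2 changes across genes was 0.795, and 0.876 in the 234 genes with a mean of at least 20 reads of each allele. These correlations are descriptions over genes, and the alleles share their libraries and scaling.

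**Figure D3:**
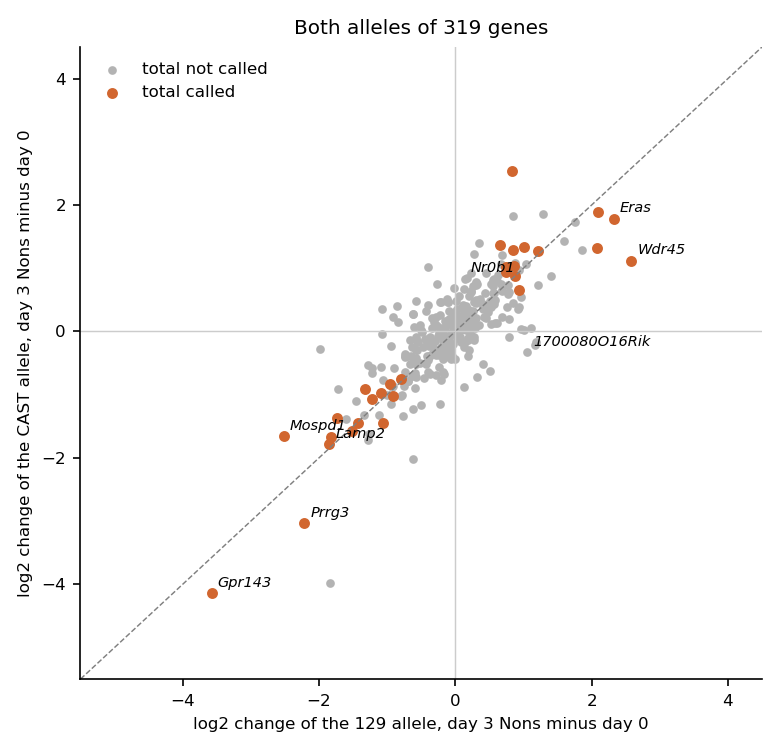
Log2 change of the 129 reads (horizontal) and the CAST reads (vertical) of 319 genes from day 0 to day 3 Nons, with the 29 genes called from the total in orange and equal change on the dashed line. The called genes lie in the upper right and lower left, some of them off the line, and Nr0b1 lies above it. Log2 changes in ratio of the called genes ran from -1.44 to 1.74, none of them called as changed.

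The CAST/129 ratio, which is the Xi/Xa ratio once the CAST X chromosome is silenced, was not called as changed in any gene (0 of 319, 0%). Here 18 genes had an unadjusted p under 0.05, and DESeq2 also called 0 genes, with 12 at an unadjusted p under 0.05. The ratio was (CAST + 1)/(129 + 1) of a gene's summed reads. The log2 change in ratio had a median of 0.03 and quartiles of -0.19 and 0.32. It was above 0 in 177 genes and below 0 in 142. The median SE of a gene's change was 0.37. Changes well above their SE can go uncalled: that of Nr0b1 was 0.69 ± 0.19 and was not called. By the share of CAST reads and the median over SNPs, the CAST allele was slightly higher in both day 3 libraries than in both day 0 libraries. An exact permutation of 2 against 2 libraries cannot bring such a difference under 0.05. The paper describes cells with a single X chromosome (XO) as present in this system and as likely muting its effect on silencing. Their part in the ratios was not tested. The share of CAST reads was 48.1% and 49.3% at day 0 and 50.0% in both day 3 libraries. The median log2 ratio over SNPs with at least 10 reads was -0.13 and -0.04 at day 0 and 0 in both day 3 libraries. The change was 0.08 ± 0.06 (SD over the 2 replicates). Its two-sided exact permutation p was 0.5 within replicates and 0.333 without the pairing, the smallest that 2 against 2 libraries allow. Each library used its own set of SNPs here. Over SNPs with 10 reads in all 4 libraries the change was 0.04, with an exact permutation p of 0.667 without the pairing. With at least 20 reads per SNP it was 0.07, with the same p. In single genes the ratio was higher in both replicates for 97 genes and lower in both for 67.

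**Figure D4:**
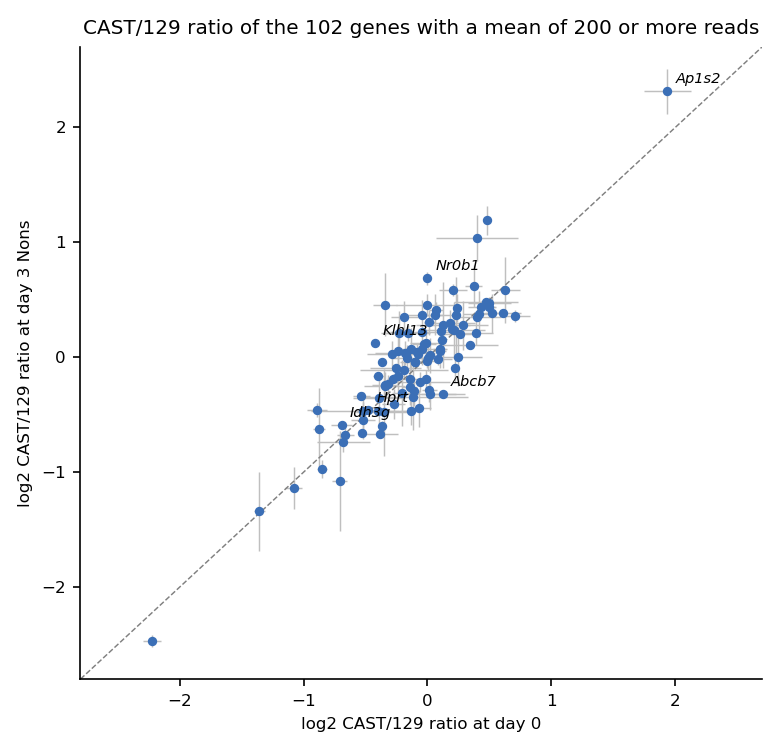
Mean log2 CAST/129 ratio of 102 genes with a mean of at least 200 reads over the 4 libraries, at day 0 (horizontal) and day 3 Nons (vertical), where the bars run from one replicate to the other and the dashed line marks no change. In 97 of the 102 genes the fitted change is within 0.5, and the 5 others (Nr0b1, Zmym3, Klhl13, Tbc1d25 and Bex4) lie above the line.

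The gene nearest to a change in ratio was Nr0b1, which fell short of the threshold. Its ratio was 0.99 and 1.00 at day 0 and 1.55 and 1.67 at day 3, and the replicates of each day were close together. The log2 change was 0.69 ± 0.19 (adjusted p = 0.0891). Nr0b1 was called in the fit of the 4 libraries alone (adjusted p = 5.65e-06) and when the ratios were centred on each library's median (adjusted p = 0.0335), and its adjusted p ran from 5.65e-06 to 0.691 over 11 fits, the one reported included. The CAST reads of Nr0b1 changed by 0.83 and the 129 reads by 0.14 on the log2 scale (adjusted p = 0.167 and 0.8). The SNPs with the most reads lie close together in coding sequence, can be covered by the same 100 bp read, and are shown here because the ratio can be read from them directly.

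Nr0b1 first SNP: atcccggagaCcaacacgacg

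Nr0b1 second SNP: cgacgcaggaAatgcttacca

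At the first (C11G, chrX position 86192747) the 129 and CAST bases had 50 and 48 reads in replicate 1 of day 0, 93 and 91 in replicate 2, 34 and 65 in replicate 1 of day 3 and 79 and 145 in replicate 2. At the second (A11G, 86192763) they had 46 and 40, 91 and 89, 36 and 55, and 76 and 144. The day 0 reads were nearly even and the day 3 reads leaned to CAST in both replicates. The 10 Nr0b1 SNPs were not uniform. Both day 3 ratios were above both day 0 ratios at 6 of them, and the days overlapped at 4. At 86191979, one of the 4, the ratio was 1.5 and 1.13 at day 0 and 0.81 and 1.29 at day 3.

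Among the 102 genes with a mean of at least 200 reads, the changes beyond 0.5 were all towards CAST, in Nr0b1 and 4 others, none of them called. The ratio of Klhl13 was 0.75 and 0.73 at day 0 and 1.07 and 1.11 at day 3, with replicates about as close as those of Nr0b1 (0.53 ± 0.21, adjusted p = 0.609). Zmym3 had 0.74, 0.85, 1.67 and 1.13, Tbc1d25 had 1.38, 1.41, 2.49 and 2.09, and Bex4 had 1.05, 1.66, 1.79 and 2.36 (log2 changes of 0.76, 0.70 and 0.64, adjusted p = 0.531, 0.609 and 0.691).

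The other genes named by the rule for the ratio also fell short. The ratio of 2610002M06Rik was 0.41 and 0.46 at day 0 and 0.66 and 1.28 at day 3 (1.11 ± 0.39, adjusted p = 0.511), and that of Rpgr, a protein of the photoreceptor cilium, was 0.49, 0.83, 0.93 and 1.52 (0.93 ± 0.34, adjusted p = 0.511). In the other direction were 1700080O16Rik (3.29 and 4.31 at day 0, 1.46 and 1.52 at day 3, adjusted p = 0.511), Arxes1 (1.45, 1.72, 1.03 and 0.71, adjusted p = 0.609) and Wdr45 (1.8, 2.78, 1.00 and 0.90, adjusted p = 0.729). Prps1, an enzyme of nucleotide synthesis, was called beside Nr0b1 in the fits of the 4 libraries alone and of centred ratios, but not in the fit of all libraries (-0.35 ± 0.16, adjusted p = 0.781). Its ratio was 1.5 and 1.78 at day 0 and 1.24 and 1.33 at day 3. Some genes were skewed at both days alike: the ratio of Ap1s2, an adaptor of vesicle coats, was 3.35 and 4.36 at day 0 and 5.70 and 4.34 at day 3, and that of the noncoding RNA gene Firre was 0.23, 0.20, 0.17 and 0.19. All 39 SNPs of Firre had lower levels at day 3, with 1086 and 503 at day 0 and 416 and 180 at day 3 for the gene (-1.32 ± 0.48, adjusted p = 0.108, and 0.000799 with the replicate as a block). Ap1s2, Firre and Prps1 were picked with their values in view. Of the genes that escape X inactivation, Kdm5c had ratios of 1.06, 0.95, 0.94 and 1.02, Ddx3x 1.11, 1.04, 1.06 and 1.02, Eif2s3x 0.71, 0.95, 1.11 and 0.95, and Kdm6a 0.93, 1.17, 0.98 and 0.66. The spread was widest in Kdm6a, and none of the 4 changes in ratio was called.

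The other libraries show where the day 3 levels lie in the time course. The hairpin libraries of day 3 share the day but not the Nons hairpin. In 13 of the 14 genes that rose, all 4 of them lay above both day 0 libraries, and in 12 of the 15 that fell, all 4 lay below. Over all 319 genes these shares were 11% and 23.2%. These counts use the same day 0 libraries and so do not stand apart from the calls. At day 5 of Nons, 8 of the 14 genes that rose had both libraries below both of day 3, as had 36.7% of all tested genes. Genes chosen for high levels at day 3 tend to lie lower elsewhere, so nothing is read from this count. Eras had 33.3 and 48.5 at day 5, after 177 and 274 at day 3. Only Flna and Med14 had both day 5 libraries above both of day 3, with 3727 and 5159 for Flna and 371 and 382 for Med14. Of the 15 genes that fell, 11 had both day 5 libraries above both of day 3, as had 30.1% of all tested genes, and the same limit holds. Prrg3 had 82.7 and 60.7 at day 5, above its day 0 levels of 43.8 and 25.3. Gk and Magt1 had both day 5 libraries below both of day 3, with 110 and 109 and with 188 and 209.

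**Figure D5:**
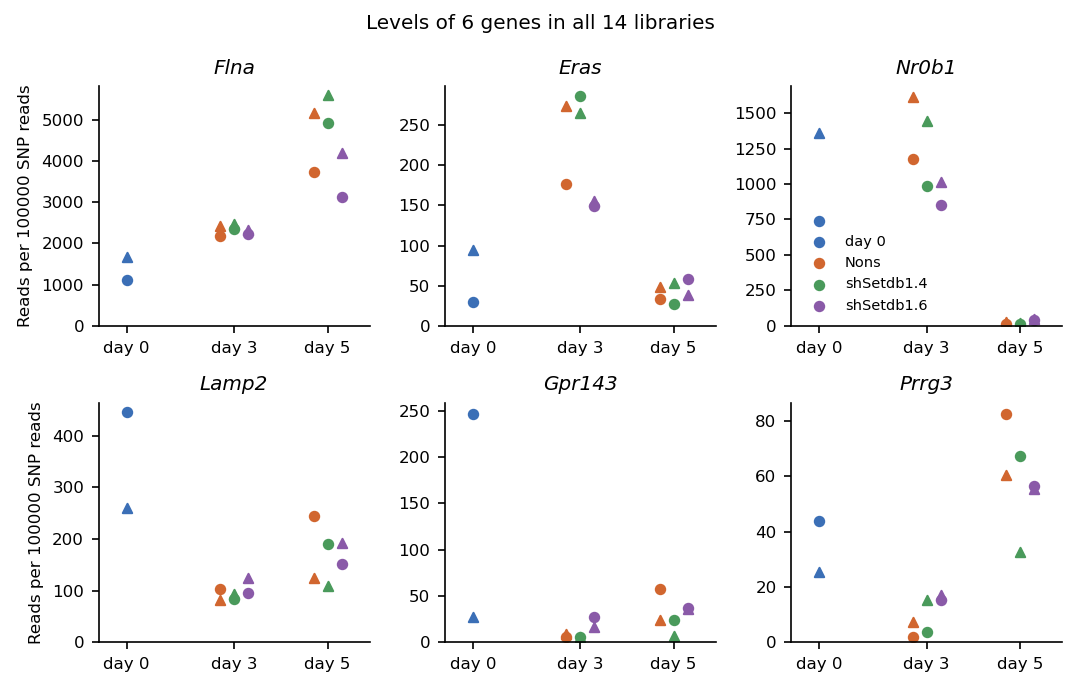
Levels of 6 genes in reads per 100000 X-linked SNP reads in all 14 libraries, by day and hairpin, with circles for replicate 1 and triangles for replicate 2. Eras is highest at day 3 and Flna at day 5 with every hairpin, Nr0b1 is high until day 3 and near 0 at day 5, and Prrg3 is lowest at day 3 with every hairpin. Lamp2 and Gpr143 are low at day 3, where some hairpin libraries overlap with those of day 5.

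The ES cell marker Nr0b1 had levels of 13.8 and 30.3 at day 5 of Nons after 1177 and 1611 at day 3. No test between day 3 and day 5 was made, and these values are set side by side only.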

How the data were processed

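Total RNA of each sample was made into TruSeq libraries, which do not mark strand, and sequenced as 100 bp single reads. According to the methods and the submitters' processing notes, the authors called bases with CASAVA 1.8.2, mapped reads to mm10 with Subread and took allele counts at known X-linked SNPs with a SAMtools pileup. The deposited values are raw read counts with the reference (129) or alternative (CAST) base at each SNP, not normalized. A read over several SNPs of a gene is counted at each, reads carry no molecular identifiers, and mapping to the reference can favour the 129 base. Another 4 columns of per-sample values belong to samples not analysed here and were not used. Values of Xist and of 1 other gene are not reported here, though the other gene is included in counts over all genes.

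SNPs were assigned to genes by overlap with GENCODE vM21 exons (mm10). Of 2239 SNPs, 31 in 2 or more genes and 35 outside exons were left out. Genes with a mean of at least 10 reads over 14 libraries were tested (319 of 355) with edgeR 4.0.16 (R 4.3.3; TMM, quasi-likelihood) in 1 fit of 7 groups, Benjamini-Hochberg adjusted. The ratio model used both alleles as columns, a library term, an allele by group term and an allele by replicate block. Library medians were compared by exact permutation. DESeq2 1.42.0 was an alternative. The edgeR fits of totals (without the replicate block) and of ratios were tested on simulated data. Tables were made in Python 3.11.15 (scipy 1.17.1, pandas 2.3.3, numpy 2.4.6).

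The replicate numbers mark 2 independent differentiation experiments, as the study's methods describe, and so pair the samples. Deviations of same-numbered libraries from their group means correlated at 0.398 between day 0 and day 3 for totals and 0.0838 for ratios. The mean over all 21 pairs of groups was lower, at 0.184 for totals and 0.0297 for ratios. P-values of the edgeR fits measure the spread between replicate libraries over all 7 groups, in a single line. The main test of totals does not use the pairing, while the fit with the replicate block and the ratio model do.

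The comparison, gene lists and tests were chosen with earlier results of these data known. Genes were named by rule: the 12 called genes in each direction with the smallest adjusted p that moved alike in both replicates, up to 8 in each direction for the ratio and 4 for single alleles, or the 3 with the smallest unadjusted p where fewer passed, and members of the lists. The other called genes, and Sms, Rbm3, Ap1s2, Prps1, Firre, Zmym3, Tbc1d25 and Bex4, were named after their values were seen.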

Additional observations from a re-analysis of the deposited data

How the results depend on the processing

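The number of genes called from total reads was 29. It lay between 0 and 44 when 1 library was left out, and was 18 with at least 10 reads in every library (247 genes tested), 0 in a fit of the 4 libraries alone, 15 with 1 SNP per gene (276 tested) and 50 with the replicate as a block. DESeq2 called 27 genes, no filter gave 22 and scaling to library totals alone gave 24. The ratio had 0 calls, also with any 1 library left out (between 0 and 0), and 2 in the fit of the 4 libraries alone and 2 with centred ratios. The reads of the 129 allele gave 6 calls, between 0 and 32 with 1 library left out, 14 with 1 SNP per gene, 12 with DESeq2 and 32 with the replicate block. The reads of the CAST allele gave 10 calls, between 0 and 38 with 1 library left out, 6 without the filter, 6 in the fit of the 4 libraries alone, 5 with 1 SNP per gene and 33 with the replicate block. The change of the library median ratio lay between 0.0377 and 0.126 with 1 library left out, and was 0.0412 over SNPs with 10 reads in all 4 libraries. None of the 29 genes called from the total, and none of the 6 named for the ratio, changed direction in an alternative in which it was tested. Medians of lists near 0 did change sign: without replicate 2 of day 0 that of the signalling list was -0.13 and that of the germline list -0.18, without replicate 2 of day 3 that of the mitochondrial list was 0.02, and with at least 10 reads in every library that of the sterol list was -0.01. Of the 24 genes named by rule for their totals, 24 were called with the replicate block and 22 with DESeq2, and 0 without replicate 1 of day 0, without replicate 2 of day 3 or in the fit of the 4 libraries alone. Without the replicate block no ratio was called. The causes were not tested, beyond the smaller number of genes or samples in some fits. With 2 libraries per group and between 51392 and 82899 reads in each, genes with few reads have wide errors.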
